A study of Mus musculus with 70 samples.

Results

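Expression of 7 genes of the choroid plexus epithelium, of 34677 genes in the gene table, was followed through 70 RNA-Seq libraries of mouse brain regions and mouse embryonic stem cells. The genes are *Ttr*, *Folr1*, *Kl*, *Clic6*, *Aqp1*, *Slc4a5* and *Cldn2*. They were taken by name as textbook markers of this epithelium, with earlier results of these data known. Their levels served as a measure of choroid plexus RNA in a tissue punch. Several of them were also found where *Ttr* was nearly absent, so the level of a single gene is not such a measure everywhere.

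The series comprised 57 libraries from 18 regions of P56 C57BL/6NTac male mice, 9 libraries from 4 regions of E14.5 C57BL/6NTac embryos, and 4 libraries from 2 mESC lines. The adult regions were frontal pole cortex (FRP), anterior cingulate area (ACA), entorhinal area (ENT), nucleus accumbens (ACB), the paraventricular (PVH), dorsomedial (DMH), ventromedial (VMH) and arcuate (ARH) nuclei and lateral area (LHA) of the hypothalamus, ventral tegmental area (VTA), parabrachial nucleus (PB), nucleus of the solitary tract (NTS), dorsal-vagal complex (DVC), cerebellar nuclei (CBN), central lobule II (CENT2), culmen lobules IV-V (CUL4-5), uvula (UVU) and flocculus (FL). The embryonic regions were forebrain (F), midbrain (M), hindbrain (H) and terminal with peduncular hypothalamus (THy/PHy), and the mESC lines B6-1 and B6-2 were each a clone from C57BL/6 mice. No mouse carried a genetic change or received a treatment, adult punches were pooled from 3 or 4 mice apart from 1 ACB library from 1 mouse, and each embryonic library was pooled from 4 embryos.

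The 7 genes lie on 6 chromosomes of GRCm38, and the annotation gives each as protein coding. *Ttr* (ENSMUSG00000061808.4, chr18:20665280-20674321) encodes transthyretin, the carrier of thyroxine and of retinol-binding protein. *Folr1* (ENSMUSG00000001827.12, chr7:101858331-101870788) encodes folate receptor alpha, which takes folate into the fluid. *Kl* (ENSMUSG00000058488.7, chr5:150952607-150993817) encodes klotho, the co-receptor of FGF23. *Clic6* (ENSMUSG00000022949.9, chr16:92485736-92541243) encodes a chloride intracellular channel protein, and *Aqp1* (ENSMUSG00000004655.5, chr6:55336432-55348555) the water channel of the apical membrane. *Slc4a5* (ENSMUSG00000068323.12, chr6:83219828-83304945) encodes a sodium bicarbonate cotransporter, and *Cldn2* (ENSMUSG00000047230.6, chrX:139800828-139811386) a claudin of leaky tight junctions.

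The choroid plexus is a fold of vascular tissue inside the brain ventricles, covered by a cuboidal epithelium that makes cerebrospinal fluid. The epithelium moves salts, water, vitamins and hormones between blood and fluid, and tight junctions between its cells form a barrier between them. It arises during embryonic development, first at the roof of the hindbrain. A punch beside a ventricle can take in some of it, and the epithelium carries very large amounts of transthyretin mRNA.

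Promoter sequences of RefSeq (GRCm38.p6, windows of 300 bases) were matched by symbol for 4 of the 7 genes. The windows of *Kl* and *Cldn2* span the start of the annotated gene. That of *Aqp1* ends at 55336348, before the annotated start at 55336432. That of *Slc4a5*, chr6:83237125-83237424, lies inside the annotated gene, which starts at 83219828. The windows of 3 genes are shown because *Kl* and *Cldn2* were called higher in CBN than in H, while *Aqp1* relative to *Ttr* was higher in H. All are on the plus strand, written 5′ to 3′, with CG dinucleotides in capitals.
*Kl*, chr5:150952357-150952656: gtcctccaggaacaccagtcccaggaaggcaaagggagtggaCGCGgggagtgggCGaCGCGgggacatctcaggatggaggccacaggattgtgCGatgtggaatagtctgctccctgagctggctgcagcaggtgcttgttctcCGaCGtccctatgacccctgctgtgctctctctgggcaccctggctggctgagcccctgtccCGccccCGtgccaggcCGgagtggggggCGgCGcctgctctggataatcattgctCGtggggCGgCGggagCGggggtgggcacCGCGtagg
*Aqp1*, chr6:55336049-55336348: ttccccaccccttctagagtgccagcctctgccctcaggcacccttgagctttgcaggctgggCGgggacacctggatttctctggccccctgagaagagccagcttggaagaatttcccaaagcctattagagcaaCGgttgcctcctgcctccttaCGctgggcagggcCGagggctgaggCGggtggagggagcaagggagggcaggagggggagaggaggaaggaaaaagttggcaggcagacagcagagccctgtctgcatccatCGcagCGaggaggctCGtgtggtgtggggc
*Cldn2*, chrX:139800558-139800857: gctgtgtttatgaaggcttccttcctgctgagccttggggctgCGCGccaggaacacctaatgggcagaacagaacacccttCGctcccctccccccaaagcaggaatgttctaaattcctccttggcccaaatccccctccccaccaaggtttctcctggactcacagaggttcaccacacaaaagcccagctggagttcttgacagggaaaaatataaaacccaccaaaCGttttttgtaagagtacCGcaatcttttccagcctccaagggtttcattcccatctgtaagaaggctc

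The *Kl* window held 19 CG dinucleotides, the *Aqp1* window 8 and the *Cldn2* window 5, where the median of 32851 promoters of this length was 7. The window of *Slc4a5* held 6. The hexamer TAATCC, a core bound by OTX factors, was in none of the 4 windows on either strand and in 7.06% of all promoters. The hexamer GTTGCC, bound by RFX factors, was in the *Aqp1* window and in 12.5% of all promoters, and TGTTTA, a core bound by FOX factors, was in the *Cldn2* window and in 13.4% of all promoters. No window held more than 1 of these motifs, and a match describes letters only.

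Levels below are TPM, a relative abundance that accounts for transcript length and library depth, summed by the authors over the transcripts of each gene. Library totals ran from 9074581 to 22229582 estimated counts, with a median of 17016935. In bulk tissue, fewer cells of a type and less RNA per cell cannot be told apart. The p-values measure the spread between pools of mice and not between mice, and punches of different regions shared mice, which the tests treat as independent.

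Most adult punches held almost no *Ttr*, and a few held very much. In 46 of the 57 adult libraries *Ttr* lay under 12 TPM, with a highest value of 10.7, and in the other 11 it lay at 30.2 TPM or more. The 11 libraries came from 5 regions, CBN, FL, UVU, NTS and DVC, all of the cerebellum or the caudal hindbrain. In the remaining 13 adult regions no library passed 3.85 TPM of *Ttr*. Over the 18 adult regions all 7 genes were called different (edgeR quasi-likelihood F test, adjusted p between 7.6e-17 for *Slc4a5* and 6.4e-10 for *Folr1*), against 80.9% of all 19980 genes tested.

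**Figure D1:**
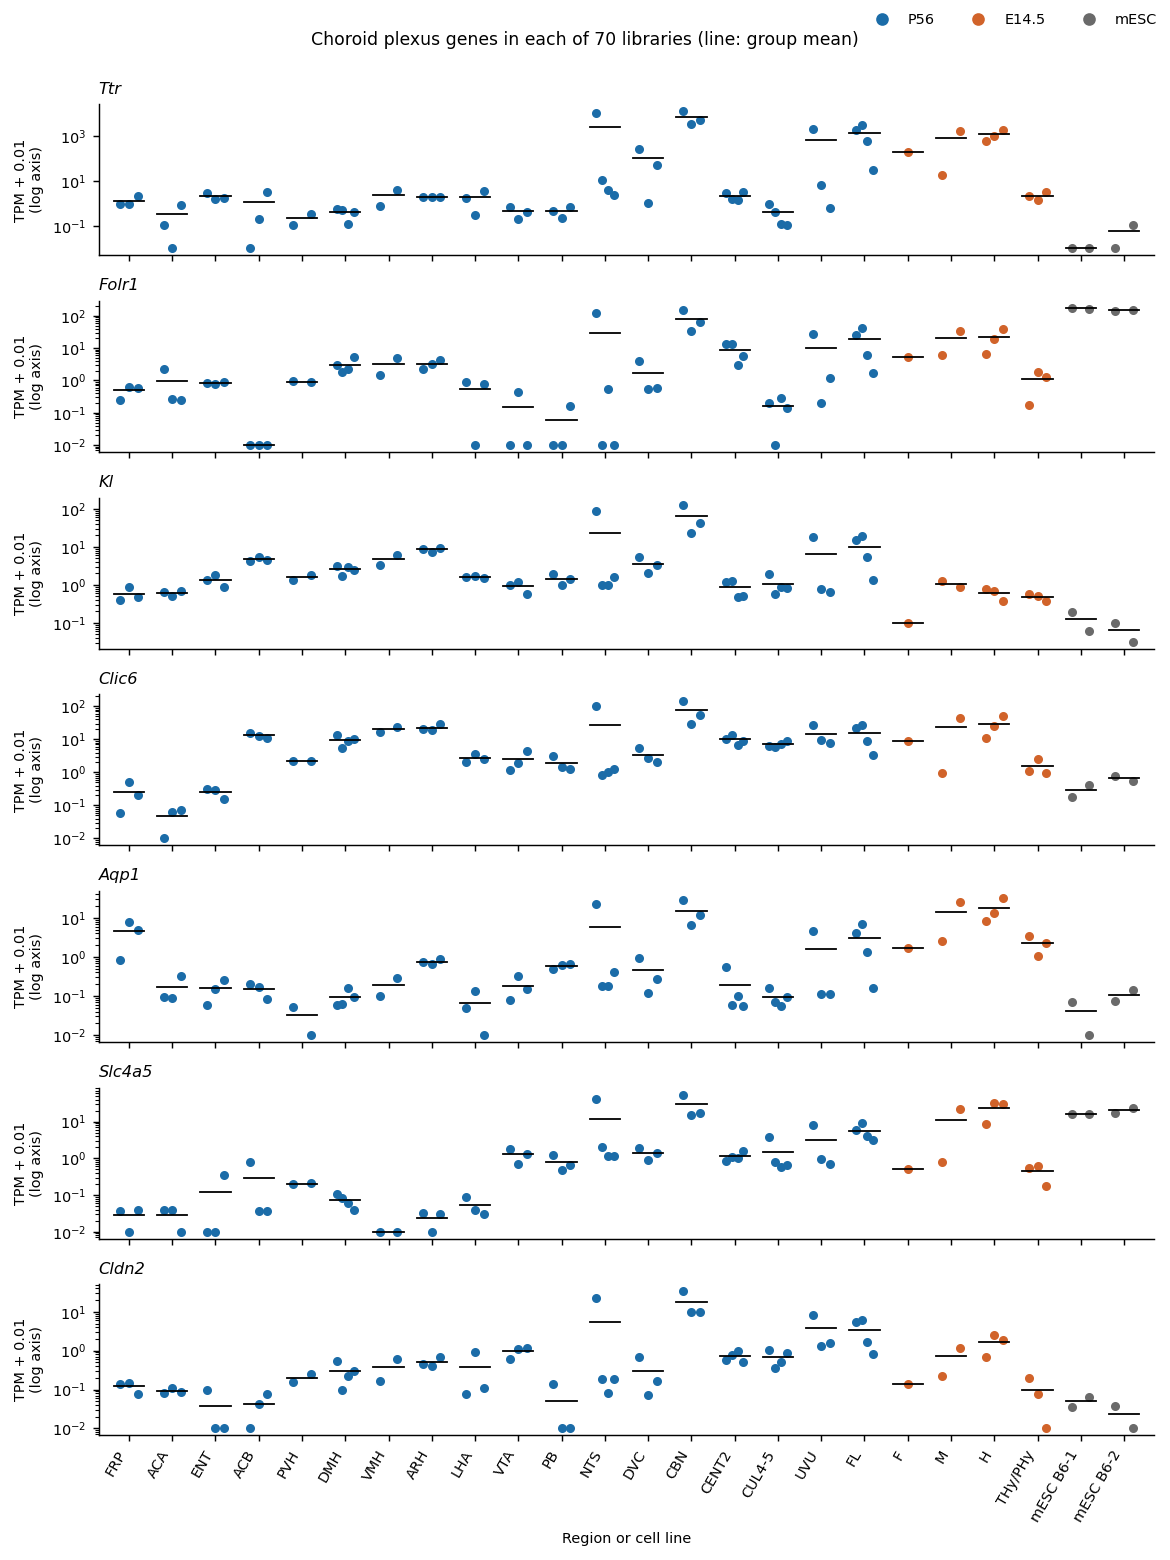
TPM + 0.01 on a log axis for each of the 7 genes (panels) in every library (points), by region or line (horizontal axis) and colored by stage, with the group mean as a line. All 3 CBN libraries, NTS 1 and UVU 1 stand high in all 7 panels. Most FL libraries stand high except for *Clic6*, where FL 3 and FL 4 are at 8.85 and 3.265 TPM and ARH reaches 28.3 TPM. The libraries of H are high for *Ttr*, *Folr1*, *Clic6*, *Aqp1* and *Slc4a5* but not for *Kl*, and the mESC libraries are high for *Folr1* and *Slc4a5*.

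CBN was the only adult region in which every library passed 500 TPM of *Ttr*. *Ttr* was at 12242, 3438 and 5225 TPM in CBN 1, 2 and 3 (6968 ± 4654, SD, n = 3), and *Folr1* at 148, 33.5 and 62.3 TPM. *Kl* was at 129, 23.8 and 41.6 TPM, and *Clic6* at 143, 28.2 and 54.2 TPM. CBN 1 was the highest of the 57 adult libraries for all 7 genes. *Aqp1* was at 28.2, 6.47 and 11.6 TPM, *Slc4a5* at 54.6, 15.6 and 17.6 TPM, and *Cldn2* at 34.0, 10.2 and 9.94 TPM. By group mean CBN had the highest level of all 24 groups for 5 genes, while *Folr1* was highest in mESC B6-1 and *Aqp1* in H. For each of these 5 genes the libraries of CBN overlapped those of the group next in order, which was NTS for *Ttr*, *Kl* and *Cldn2* and H for *Clic6* and *Slc4a5*. The summed level of 10 ependyma markers was 91.0 to 380 TPM in CBN and 270 to 1078 TPM in CENT2. In CENT2 *Ttr* was at 1.38 to 3.10 TPM, *Folr1* at 2.98 to 13.4 TPM and *Clic6* at 6.72 to 14.0 TPM. *Kl*, *Aqp1*, *Slc4a5* and *Cldn2* reached 1.29, 0.538, 1.61 and 0.993 TPM there. The part of ependyma in the levels of the 7 genes was not tested.

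NTS, UVU and DVC each held libraries far apart from one another. In NTS 1 *Ttr* was at 10330 TPM, and in NTS 2, 3 and 4 at 10.7, 3.85 and 2.47 TPM. *Folr1* was at 120 TPM in NTS 1 and at 0, 0.526 and 0 TPM in the others, and *Kl* at 90.1 against 0.969, 1.01 and 1.62 TPM. For all 7 genes NTS 1 lay above every other NTS library, and none of the other 3 libraries passed 1.99 TPM for *Kl*, *Clic6*, *Aqp1*, *Slc4a5*, *Cldn2* or *Folr1*. UVU 1 had *Ttr* at 2029 TPM, where UVU 2 and 3 had 6.65 and 0.595 TPM, and again all 7 genes were higher in UVU 1 than in UVU 2 and 3. *Kl* was at 17.6, 0.754 and 0.645 TPM in UVU 1, 2 and 3, and *Aqp1* at 4.62, 0.103 and 0.101 TPM. All DVC libraries were lower than NTS 1 and UVU 1 in *Ttr*, at 273, 1.08 and 52.5 TPM and *Folr1* at 4.10, 0.554 and 0.562 TPM. DVC 1 was the highest DVC library for all 7 genes, with *Clic6* at 5.63, 2.64 and 2.12 TPM and *Slc4a5* at 1.88, 0.908 and 1.34 TPM.

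In NTS 1, other genes of the choroid plexus rose with the 7, and markers of endothelium did not. Of a list of 32 other choroid plexus genes, 27 were more than 2-fold higher in NTS 1 than in the mean of NTS 2 to 4, on the scale of TPM + 1, and none was more than 2-fold lower, while 2.42% of 15488 expressed genes were more than 2-fold higher. *Kcne2*, a potassium channel subunit, was at 59.3 TPM against at most 0.272 TPM, and *Kcnj13*, a potassium channel of the apical membrane, at 60.5 against at most 1.24 TPM. *Otx2*, a transcription factor the epithelium needs to form, was at 27.3 TPM against at most 0.610 TPM. Of 10 ependyma markers 7 were more than 2-fold higher, and their sum was 160 TPM in NTS 1 against 33.0 to 91.1 TPM. Of 10 meninges markers 3 were more than 2-fold higher, with a sum of 64.5 against 37.1 to 47.6 TPM. None of 8 endothelium markers passed 2-fold, with a sum of 324 against 315 to 353 TPM. None of 5 red cell genes did, with a sum of 2275 against 1561 to 2802 TPM. The part of ependyma and meninges in the levels of the 7 genes was not tested.

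In UVU 1 other choroid plexus genes, ependyma markers and red cell genes were high. Likewise 21 of the 32 other choroid plexus genes were more than 2-fold higher in UVU 1 than in the mean of UVU 2 and 3, against 2.32% of the expressed genes. *Kcne2* was at 13.1 TPM against at most 0.173 TPM. *Otx2* was at 51.9 TPM in UVU 1 and at 44.4 to 47.1 TPM in UVU 2 and 3, so this gene was high in all UVU libraries. Of the 10 ependyma markers 9 were more than 2-fold higher, with a sum of 112 against 28.0 to 30.7 TPM, and 4 of the 5 red cell genes were, with a sum of 4181 against 1095 to 2482 TPM. No meninges or endothelium marker passed 2-fold. The part of these markers was not tested.

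**Figure D2:**
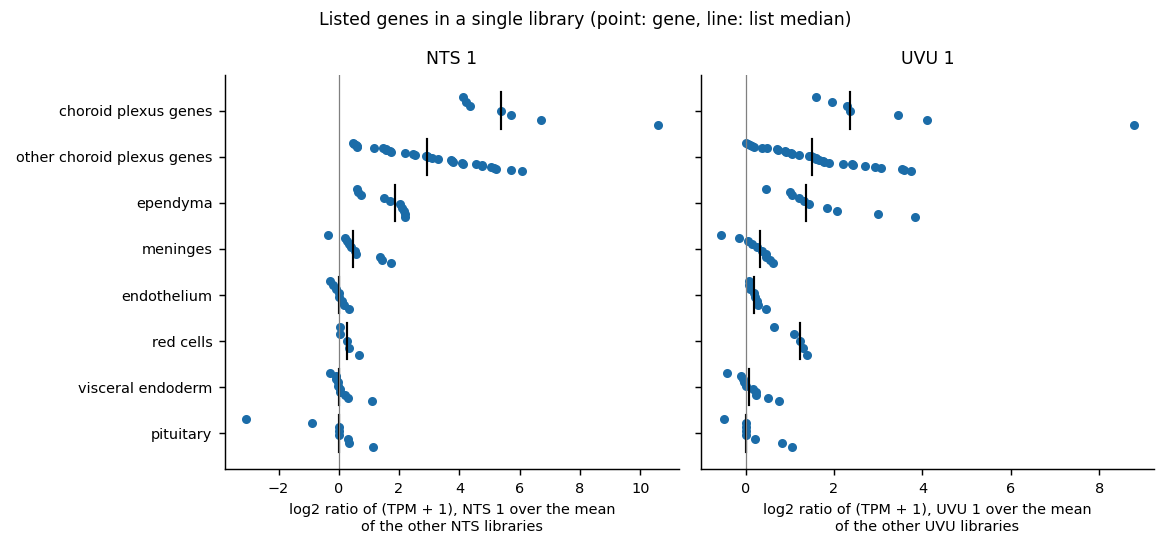
Log2 ratio of TPM + 1 in NTS 1 (left) and UVU 1 (right) over the mean of the other libraries of the region (horizontal axis), for each gene (points) of 8 lists (vertical axis), with the list median as a line. The 7 choroid plexus genes have the highest medians of the lists, 5.37 in NTS 1 and 2.35 in UVU 1, and the 8 endothelium genes lie near 0.

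Relative to *Ttr*, *Aqp1* varied least among the adult libraries rich in *Ttr*. Per 1000 TPM of *Ttr*, *Aqp1* lay between 1.88 and 2.31 TPM in CBN, at 2.15 in NTS 1, at 2.27 in UVU 1, and at 2.33, 2.36 and 2.22 in FL 1, 2 and 3. *Kl* lay between 6.92 and 10.6 in CBN, at 8.72 in NTS 1, at 8.69 in UVU 1 and at 8.52, 6.52 and 8.73 in FL 1, 2 and 3, and *Folr1* ran from 9.73 to 15.1 and *Clic6* from 8.21 to 14.6 over these libraries. Libraries under 500 TPM of *Ttr* are left out of these ratios. *Ttr* itself ran from 608 TPM in FL 3 to 12242 TPM in CBN 1 over these 8 libraries. *Slc4a5* varied more, from 3.04 in FL 2 to 6.65 in FL 3, and *Cldn2* from 1.90 in CBN 3 to 4.13 in UVU 1.

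In the embryonic hindbrain the proportions were different. *Ttr* was at 566, 1025 and 1880 TPM in H 1, 2 and 3 (1157 ± 667, SD, n = 3), *Aqp1* at 8.19, 13.6 and 32.4 TPM, and *Slc4a5* at 8.56, 32.2 and 29.3 TPM. *Kl* was at 0.760, 0.699 and 0.363 TPM and *Cldn2* at 0.681, 2.51 and 1.82 TPM. *Kl* was thus not higher where *Ttr* was higher within H, whereas *Aqp1* and *Clic6*, the latter at 11.2, 25.3 and 50.3 TPM, followed *Ttr*. The *Kl* values rest on only 27, 38 and 18 estimated counts. H 1 also had the lowest total of all libraries, 9074581 counts. Mitochondrial genes held 22.6%, 11.8% and 6.1% of the TPM in H 1, 2 and 3. Per 1000 TPM of *Ttr*, *Aqp1* lay between 13.3 and 17.3 TPM in H, and *Kl* between 0.193 and 1.34 TPM.

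On the log2 scale the ratio of *Kl* to *Ttr* was 3.89 higher in CBN than in H, and the ratios of *Aqp1*, *Slc4a5* and *Clic6* differed by -2.81, -2.26 and -1.24. For these 4 genes the 3 libraries of CBN and the 3 of H did not overlap, with an exact two-sided permutation p of 0.1 each, the smallest that 3 against 3 allows (0.15 adjusted over 6 genes). The ratio of *Folr1* differed by -0.57 (exact permutation p = 0.3) and that of *Cldn2* by 0.82 (exact permutation p = 0.2), and for both the libraries of CBN and H overlapped. M 2, with 1614 TPM of *Ttr*, had 15.7 TPM of *Aqp1* and 0.529 TPM of *Kl* per 1000 TPM of *Ttr*, both within the range of H. Its other ratios lay just outside that range, at 21.2 for *Folr1*, 28.1 for *Clic6*, 13.3 for *Slc4a5* and 0.739 for *Cldn2*. The transcript shares of *Slc4a5* varied widely within H, with 0% to 35.7% of its TPM on Slc4a5-201 (52.5% to 59.6% in CBN) and 6.77% to 69.3% on Slc4a5-202 (0.343% to 1.66% in CBN).

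**Figure D3:**
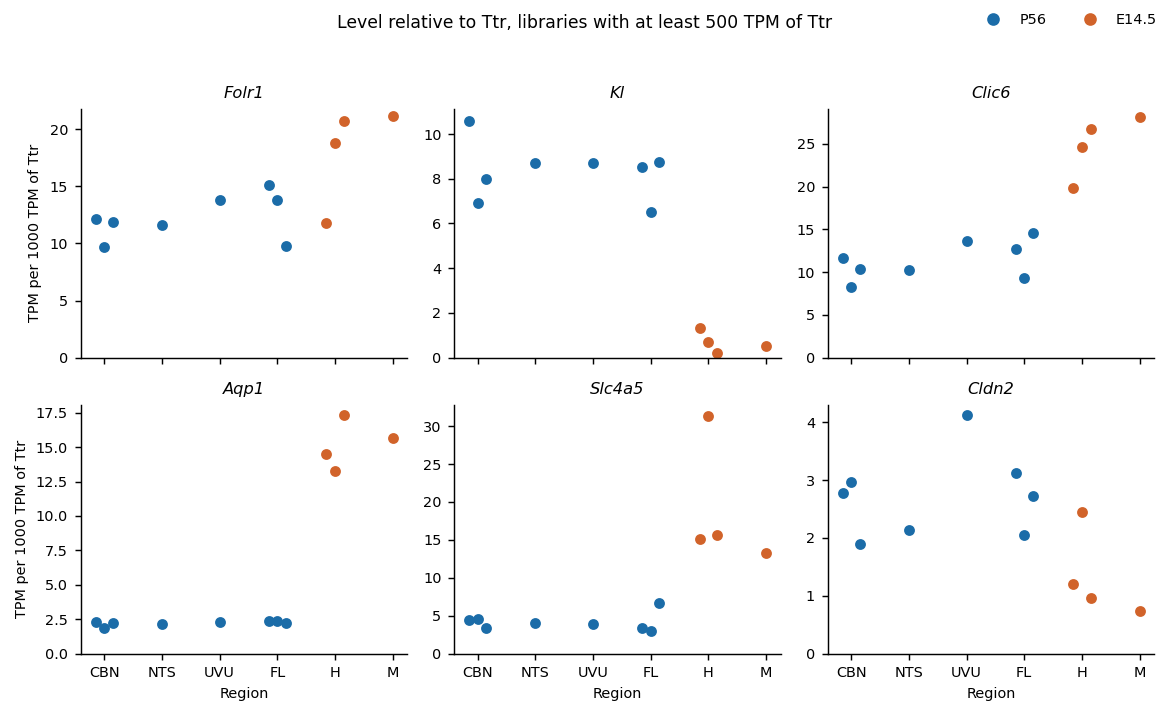
TPM of 6 genes per 1000 TPM of *Ttr* (vertical axis) in each library with at least 500 TPM of *Ttr* (points), by region and colored by stage. *Kl* is at 6.52 to 10.6 in the adult libraries and at 0.193 to 1.34 in the embryonic ones, and *Aqp1* at 1.88 to 2.36 and at 13.3 to 17.3.

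Tested directly, *Kl* and *Cldn2* were higher in CBN than in H and the other 5 genes were not called. This comparison was added after the levels had been seen. Of the 7 genes 2 were called, where 40.9% of all genes were called in either direction (edgeR quasi-likelihood test, adjusted p under 0.05 and absolute log2 fold change above 1). The log2 fold change of *Kl* was 6.65 ± 1.18 (SE, adjusted p = 2.2e-06) and that of *Cldn2* 3.63 ± 1.02 (adjusted p = 0.0017). *Ttr* differed by 2.62 ± 1.53 (adjusted p = 0.13) and *Aqp1* by -0.18 ± 0.96 (adjusted p = 0.9). The *Ttr* libraries did not overlap, at 3438 to 12242 TPM in CBN and 566 to 1880 TPM in H. The model estimates the spread of a gene over all groups, so libraries of other regions enter these standard errors. Of the 32 other choroid plexus genes 16 were higher and 2 lower in CBN, with a median log2 fold change of 1.66 against 0.00 over all genes. *Enpp2*, the secreted enzyme autotaxin, was at 813 to 2748 TPM in CBN and 25.6 to 56 TPM in H (log2 fold change 5.32 ± 0.60, adjusted p = 4.5e-11). *F5*, coagulation factor V, was at 5.87 to 33.9 against 0.211 to 0.321 TPM (5.97 ± 1.05, adjusted p = 1.8e-06), and *Prlr*, the prolactin receptor, at 4.50 to 26.9 against 0.389 to 1.10 TPM (4.52 ± 0.68, adjusted p = 8.3e-08). *Cox8b*, a cytochrome c oxidase subunit, was at 10.1 to 24.2 TPM in CBN and listed at 0 in every H library. Not all of these genes were low in adult libraries poor in *Ttr*. In NTS 2 to 4 *Enpp2* was at 263 to 280 TPM and *Cox8b* at 3.82 to 9.08 TPM. *Prlr* was there at 2.67 to 3.33 TPM and *F5* at 0.340 to 0.490 TPM. In the hypothalamus *Prlr* was at 5.68 to 19.2 TPM.

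Stage and batch cannot be told apart here, since adult, embryonic and mESC samples were collected in different batches. Meninges markers also moved with stage, with 6 of 10 lower in CBN than in H and a sum of 53.9 to 130 TPM against 585 to 1156 TPM. Of 10 ependyma markers 4 were higher in CBN, of 8 endothelium markers 5 were higher and 3 lower, of 5 red cell genes 3 were lower, and of 10 visceral endoderm markers 2 were higher and 5 lower. The part of these markers in the result was not tested.

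**Figure D4:**
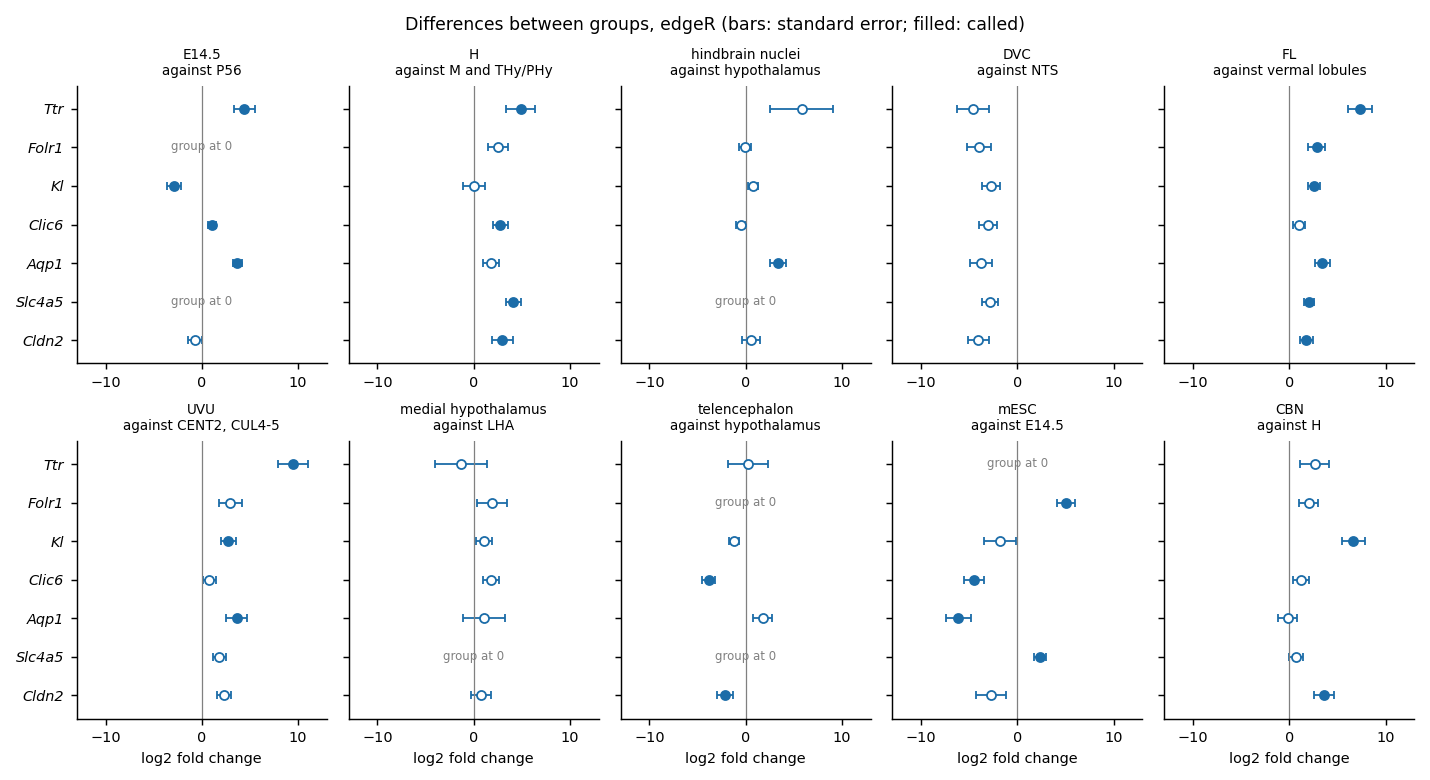
Log2 fold changes (horizontal axis) with standard errors of the 7 genes (vertical axis) in 10 comparisons (panels), with called genes filled. The words group at 0 stand in place of a value where a group of the comparison had 0 counts in every library, which applies to 3 called values of *Folr1* or *Slc4a5* and 1 of *Ttr*. *Kl* points down and *Ttr* and *Aqp1* up in E14.5 against P56, and all 7 genes point down in DVC against NTS with none called.

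The comparison of stages set the average of the embryonic regions against that of the adult ones. The regions were not matched between stages, so stage and the choice of regions cannot be told apart in it. *Ttr* lay at 1.39 to 3.09 TPM in THy/PHy and at 0.102 to 3.85 TPM in the adult hypothalamus. Averaged over regions, 5 of the 7 genes were higher in the 4 embryonic regions than in the 18 adult ones and *Kl* was lower. In total 6 of 7 were called, where 37.7% of all genes were. *Ttr* was higher by 4.43 ± 1.11 on the log2 scale (adjusted p = 0.00036), *Aqp1* by 3.69 ± 0.47 (adjusted p = 5.2e-10) and *Clic6* by 1.07 ± 0.44 (adjusted p = 0.026), all by edgeR. *Folr1* (adjusted p = 0.0077) and *Slc4a5* (adjusted p = 6.7e-05) were also called higher, and no fold is given since *Folr1* had 0 counts in ACB and *Slc4a5* in VMH. *Kl* was lower by -2.86 ± 0.71 (adjusted p = 0.0003), with at most 1.23 TPM in any embryonic library. *Cldn2* differed by -0.68 ± 0.71 (adjusted p = 0.41). Ranges overlapped for all 7 genes, and the median over libraries was higher in the adult for *Kl* (1.62 against 0.570 TPM) and *Cldn2* (0.354 against 0.212 TPM). Without M 2, *Ttr* was higher by 3.09 (adjusted p = 0.0057). *Clic6* was not called without M 2 (0.03, adjusted p = 1) or THy/PHy 2 (0.99, adjusted p = 0.064), nor was *Folr1* without THy/PHy 2 (adjusted p = 0.067).

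Of the 32 other choroid plexus genes 12 were higher and 6 lower in the embryo, with a median log2 fold change of 0.55. *Otx2* was higher by 4.57 ± 0.30 (adjusted p = 1e-19) and *Kcne2* by 3.73 ± 0.72 (adjusted p = 8.1e-06). *Lmx1a* (adjusted p = 1.2e-17) and *Krt8* (adjusted p = 4.3e-09) were also called higher, with no fold given since they were listed at 0 in every library of some adult regions. *Otx2* and *Lmx1a* encode transcription factors that also pattern the embryonic midbrain and roof plate. Meninges markers (8 of 10 higher) and red cell genes (5 of 5 higher) moved in the same direction, and their part was not tested.

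Among embryonic regions the hindbrain had the highest group mean of every gene but *Kl*, which was highest in M. M 2 still lay above H 1 and H 2 in *Ttr*, *Folr1*, *Clic6* and *Aqp1*. The test left out F, which had 1 library, and the ranges of its 2 sides overlapped for all 7 genes. In all, 4 of the 7 genes were higher in H than in M and THy/PHy, where 8.03% of all genes were called: *Ttr* (log2 fold change 4.88 ± 1.52, adjusted p = 0.011), *Slc4a5* (4.14 ± 0.77, adjusted p = 7e-05), *Clic6* (2.79 ± 0.79, adjusted p = 0.0051) and *Cldn2* (2.97 ± 1.08, adjusted p = 0.029). *Folr1* (2.50 ± 1.04, adjusted p = 0.058), *Aqp1* (1.83 ± 0.86, adjusted p = 0.096) and *Kl* (0.01 ± 1.14, adjusted p = 1) were not called by edgeR. THy/PHy was low, with *Ttr* at 2.18, 1.39 and 3.09 TPM, and F had 191 TPM. The 2 midbrain libraries differed, with *Ttr* at 18.8 and 1614 TPM and *Clic6* at 0.933 and 45.3 TPM in M 1 and M 2. *Kl*, at 1.23 and 0.854 TPM, was the exception of the 7, with no more in M 2 than in M 1. Meninges markers ran the other way, 8 of 10 being more than 2-fold lower in M 2, with a sum of 239 against 1046 TPM, and their part was not tested.

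*Slc4a5* and *Clic6* were called in H with any library left out, and other calls turned on single libraries. Without M 2, 6 genes were called, *Aqp1* (3.07, adjusted p = 0.03) and *Folr1* (3.40, adjusted p = 0.037) among them, and *Ttr* stood at 7.63, *Slc4a5* at 5.86 and *Clic6* at 4.93. Without M 1, *Ttr* (adjusted p = 0.063) and *Cldn2* (adjusted p = 0.099) were not called. *Cldn2* was also lost without H 1, H 2, H 3, THy/PHy 1 or THy/PHy 3, with adjusted p of 0.076, 0.052, 0.056, 0.057 and 0.059. Of the 32 other choroid plexus genes 9 were higher and 0 lower in H (median 1.08), led by *Kcne2* (3.89 ± 1.06, adjusted p = 0.004) and *Htr2c*, the serotonin receptor 2C (2.89 ± 0.64, adjusted p = 0.00058). Ependyma markers (3 of 10 higher), meninges markers (3 of 10 higher), endothelium markers (2 of 8 higher) and visceral endoderm markers (4 of 10 higher and 1 lower) also moved, and their part was not tested.

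In FL all 4 libraries held more *Ttr* than every vermal library but UVU 1, at 1734, 2961, 608 and 30.2 TPM. In CENT2, CUL4-5 and UVU together the median was 1.38 TPM over 11 libraries. Of the 7 genes 6 were higher in FL than in the 3 vermal lobules and none was lower, where 6.33% of all genes were called. The log2 fold changes were 7.38 ± 1.24 for *Ttr* (adjusted p = 5.7e-06), 3.44 ± 0.81 for *Aqp1* (adjusted p = 0.00082), 2.56 ± 0.63 for *Kl* (adjusted p = 0.0012) and 2.08 ± 0.53 for *Slc4a5* (adjusted p = 0.0018). *Folr1* was higher by 2.83 ± 0.88 (adjusted p = 0.011) and *Cldn2* by 1.76 ± 0.65 (adjusted p = 0.033), while *Clic6* differed by 0.99 ± 0.59 (adjusted p = 0.22). *Clic6* stood at 5.88 to 14.0 TPM in the 8 CENT2 and CUL4-5 libraries, none of which passed 3.10 TPM of *Ttr*. Without FL 2, *Folr1* (2.07, adjusted p = 0.13) and *Cldn2* (1.22, adjusted p = 0.23) were not called, and *Cldn2* was lost without FL 1, UVU 2 or UVU 3, with adjusted p of 0.1, 0.063 and 0.061.

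Among the 32 other choroid plexus genes 18 were higher and 0 lower in FL (median 1.41). *Kcne2* was higher by 4.13 ± 0.94 (adjusted p = 0.00051), *Sostdc1*, a secreted BMP and Wnt antagonist, by 3.66 ± 0.89 (adjusted p = 0.0011), *Lmx1a* by 2.91 ± 0.45 (adjusted p = 1.4e-06) and *Cox8b* by 4.53 ± 0.51 (adjusted p = 1.2e-09). In NTS 1 *Kcne2* and *Sostdc1* were at 59.3 and 49.9 TPM, against at most 0.272 and 0.432 TPM in NTS 2 to 4. *Cox8b*, at 8.11 TPM in NTS 1, lay within the 3.82 to 9.08 TPM of NTS 2 to 4. *Lmx1a* was at 2.34 TPM in NTS 1 against at most 0.336 TPM, but also at 2.24 to 3.21 TPM in UVU 2 and 3. All 5 red cell genes were also higher in FL, at 5382 to 6889 TPM in sum, and 2 of 10 meninges markers were, and no ependyma or endothelium marker was. The part of blood and meninges was not tested.

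In UVU against CENT2 and CUL4-5 the calls rested on UVU 1. *Ttr* (log2 fold change 9.53 ± 1.56, adjusted p = 3.3e-05), *Kl* (2.75 ± 0.77, adjusted p = 0.031) and *Aqp1* (3.63 ± 1.08, adjusted p = 0.049) were higher in UVU, 3 of 7, where 1.31% of all genes were called. Without UVU 1 none of the 7 was called by edgeR, *Ttr* stood at 1.98 (adjusted p = 0.87), and *Kl* and *Aqp1* turned to -0.39 (adjusted p = 0.99) and -0.27 (adjusted p = 1). Only *Cldn2* had no overlap between UVU (1.27 to 8.38 TPM) and the 8 other libraries (0.354 to 1.03 TPM), and it was not called (2.32 ± 0.77, adjusted p = 0.096). The other choroid plexus genes included 7 that were higher, among them *Otx2* (3.58 ± 0.56, adjusted p = 1.2e-05) and *Lmx1a* (3.51 ± 0.56, adjusted p = 2.4e-05), which were high in each UVU library. *Aqp1* was also lost without CENT2 2, 3 or 4 or any CUL4-5 library, with adjusted p of 0.065 to 0.087, and *Kl* without CENT2 3 or 4 or CUL4-5 2, 3 or 4, with adjusted p of 0.052 to 0.057.

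DVC and NTS are neighbours, and none of the 7 genes was called between them by edgeR, where 0.0701% of all genes were. All 7 had an unadjusted p under 0.05, with log2 fold changes of -2.76 for *Kl* to -4.61 for *Ttr* (adjusted p of 0.19 to 0.44), and DESeq2 and limma called none. Without NTS 1 the values of 6 genes turned positive, *Ttr* to 4.17 ± 1.37 (adjusted p = 0.47), and *Slc4a5* was at 0.00 (adjusted p = 1). The negative direction thus held only with NTS 1 among the NTS libraries.

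Averaged over regions, the hindbrain nuclei PB, NTS and DVC had more *Slc4a5* and *Aqp1* than the hypothalamus with or without NTS 1. Of the 7 genes 2 were called, where 8.68% of all genes were. *Slc4a5* lay at 0.466 to 41.5 TPM in the 10 hindbrain libraries and at 0 to 0.196 TPM in the 14 hypothalamic ones, without overlap (adjusted p = 5.1e-09), and no fold is given since VMH had 0 counts. *Aqp1* was higher by 3.38 ± 0.84 (adjusted p = 0.00076) and by 1.89 ± 0.74 without NTS 1 (adjusted p = 0.033), at low levels that overlapped. It lay at 0.491 to 0.636 TPM in PB, 0.106 to 0.952 TPM in DVC and 0.166 to 0.403 TPM in NTS 2 to 4. In ARH it lay at 0.651 to 0.855 TPM, and no other hypothalamic library passed 0.280 TPM. *Ttr* differed by 5.83 ± 3.30 (adjusted p = 0.15). Without NTS 1, *Clic6* (-1.89 ± 0.37, adjusted p = 2.4e-05), *Cldn2* (-1.43 ± 0.55, adjusted p = 0.028) and *Folr1* (-2.35 ± 0.96, adjusted p = 0.041) were lower in the hindbrain nuclei, where with it they stood at -0.45, 0.54 and -0.06. *Cldn2* also turned to -0.57, without a call, when PB 1 was left out. Of the 32 other choroid plexus genes 7 were higher and 1 lower (median 0.54), while 5 of 10 ependyma markers were lower.

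Several of the genes were also found in regions nearly free of *Ttr*. *Clic6* was at 20.5, 19.6 and 28.3 TPM in ARH, at 17.2 and 24.4 TPM in VMH, and at 15.4, 12.7 and 11.3 TPM in ACB. In these 8 libraries *Ttr* lay at 0 to 3.85 TPM, and *Kl* was at 8.89, 7.53 and 9.13 TPM in ARH and at 4.14, 5.34 and 4.46 TPM in ACB. Per 1000 TPM of *Ttr*, CBN held 8.21 to 11.7 TPM of *Clic6*, whereas ARH had 1.82 to 1.96 TPM of *Ttr* and more *Clic6* than *Ttr*. Ependyma markers summed to 239 to 269 TPM in ARH, 216 to 435 TPM in VMH and 22.8 to 58.8 TPM in ACB, and in ARH meninges markers summed to 172 to 282 TPM and pituitary genes to 80.8 to 128 TPM. The part of these markers was not tested. *Aqp1* was at 0.814, 7.79 and 4.81 TPM in FRP, with *Ttr* at 0.958, 0.931 and 2.08 TPM, and *Folr1* at 13.4, 13.3, 2.98 and 5.77 TPM in CENT2. *Folr1* had 0 counts in all 3 ACB libraries, which allows up to 0.187 CPM in the shallowest of them, taken as 3 counts and for counting error only.

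Between telencephalon and hypothalamus *Clic6* and *Cldn2* were lower in the telencephalon, 2 of 7, where 14.6% of all genes were called. *Clic6* differed by -3.82 ± 0.68 (adjusted p = 3.3e-06) and *Cldn2* by -2.16 ± 0.81 (adjusted p = 0.02). *Clic6* lay at 0 to 0.514 TPM in FRP, ACA and ENT, and the ACB libraries overlapped the hypothalamus. *Kl* (-1.17 ± 0.52, adjusted p = 0.052) and *Folr1* (adjusted p = 0.054) were not called, nor was *Ttr* (0.23 ± 2.10, adjusted p = 1). The call of *Cldn2* was lost without LHA 2 (-1.96, adjusted p = 0.05) or VMH 2 (-1.89, adjusted p = 0.071), *Kl* was called without DMH 2, FRP 2 or VMH 1 (adjusted p of 0.047 to 0.05), and *Folr1* without LHA 2 (adjusted p = 0.046). Other choroid plexus genes were called in both directions, 2 higher and 10 lower. All 10 ependyma markers were lower in the telencephalon, and their part was not tested.

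Within the hypothalamus none of the 7 genes was called by edgeR between the medial nuclei and LHA, where 5.05% of all genes were. Only *Clic6* (1.83 ± 0.83, adjusted p = 0.12), had an unadjusted p under 0.05, and DESeq2 and limma called none. Of 10 ependyma markers 9 were higher in the medial nuclei, and of the other choroid plexus genes 3 were higher and 4 lower.

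The mESC lines had *Folr1* and *Slc4a5* with little of the other genes. *Folr1* was at 175 and 164 TPM in B6-1 and at 144 and 149 TPM in B6-2, near the 148 TPM of CBN 1, and *Slc4a5* at 15.6 and 16.5 TPM and at 17.6 and 23.8 TPM. *Ttr* had 0 counts in 3 of the 4 libraries and 1 count in the other. Against the E14.5 regions 5 of the 7 genes were called, where 55.8% of all genes were: *Folr1* (5.04 ± 0.91, adjusted p = 2.2e-06) and *Slc4a5* (2.34 ± 0.61, adjusted p = 0.0006) higher, and *Aqp1* (-6.15 ± 1.28, adjusted p = 2.5e-05), *Clic6* (-4.52 ± 1.01, adjusted p = 7.2e-05) and *Ttr* (adjusted p = 0.00039) lower, the last without a fold since B6-1 had 0 counts. *Kl* (adjusted p = 0.32) and *Cldn2* (adjusted p = 0.099) were not called. Of the other choroid plexus genes 2 were higher and 15 lower in mESC, as were 3 and 3 of 10 visceral endoderm markers, and 1 and 0 of 8 pituitary genes. Lists of other tissues fell as well. Of 10 meninges markers 9 were lower and 1 higher, and of 8 endothelium markers 6 were lower and 2 higher. Of 10 ependyma markers 7 were lower and 0 higher, and all 5 red cell genes were lower. The part of these markers was not tested.

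The transcripts behind *Slc4a5* differed between mESC and CBN. In mESC 37.0% to 56.9% of the gene's TPM lay on Slc4a5-205 and 22.1% to 39.0% on Slc4a5-206, both annotated as processed transcripts, and 16.8% to 24% on the protein-coding Slc4a5-201. In CBN Slc4a5-201 held 52.5% to 59.6% and Slc4a5-206 none. *Folr1* was on the same protein-coding transcript in both, with Folr1-201 at 49.4% to 54.8% in mESC and 51.8% to 58.2% in CBN. The shares of transcripts are estimates from short single reads.

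Over the 57 adult libraries the 7 genes moved together. The 21 pairs of genes had a median Pearson r of 0.80 on log2(TPM + 1), from 0.51 to 0.91, and a median of 0.90 for deviations from the region mean. Spearman's rho with *Ttr* was lower, from 0.35 for *Clic6* to 0.53 for *Folr1*. Within the 46 libraries under 12 TPM of *Ttr* the median r was 0.03, and within the 11 others 0.96, where the split by *Ttr*, itself 1 of the 7, narrows the range in each part. Libraries share regions, depth and tissue composition, so these are descriptions of the points. Within groups *Ttr* had an SD of 2.24 on the log2 scale, place 12 of 16146 genes, where the median gene had 0.26, and *Cldn2*, the steadiest of the 7, had 0.72, place 753.

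By their pattern over the adult libraries, 12 other genes were most like the mean of the 7, of 16093 genes that reached 5 TPM in a library. They were *Kcne2* (r = 0.97), *Mfrp* (0.961), *F5* (0.958), *Prr32* (0.955), *Defb11* (0.941), *Trpv4* (0.915), *Wdr86* (0.912), *Kcnj13* (0.908), *Steap1* (0.903), *Msx1* (0.892), *Cdh3* (0.879) and *Tuba1c* (0.876), over 57 libraries. Of these, 7 were on the list of other choroid plexus genes. In H, *F5* was at 0.211 to 0.321 TPM and *Steap1* at 0.617 to 1.06 TPM, against 33.9 and 18.4 TPM in CBN 1. *Defb11*, a beta-defensin, was at 6.72 to 21.2 TPM in H against 17.2 TPM in CBN 1.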

How the data were processed

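The members and gene lists were chosen with earlier results of these data known. The authors pseudoaligned single reads from strand-specific mRNA libraries with kallisto (GRCm38). The deposited estimated counts per transcript were summed per gene here (107987 of 109282 transcripts matched by identifier, 0.418% to 0.767% of counts unmatched) and rounded. The TPM values were deposited per gene by the authors and used as given. Groups follow the labels. All 70 libraries entered 1 edgeR 4.0.16 model of 24 groups (R 4.3.3, TMM, filterByExpr, quasi-likelihood test, Benjamini-Hochberg over 19980 genes). Calls had adjusted p below 0.05 and more than a 2-fold difference. The alternatives were DESeq2 1.42.0, limma 3.58.1 on log2(TPM + 0.5) or log2(TPM + 0.1), no filter, a replicate block and no mESC libraries. Each library was also left out in turn, keeping the dispersion trend of all libraries. The only F library was never left out. On simulated counts for E14.5 against P56, 195 of 195 tested genes changed 4-fold were called, with 3 false calls among 18070 genes. Every simulated gene had the same dispersion and no library was set apart. The simulation therefore does not cover genes that vary between libraries as the 7 do. Named genes are the 7, at most 4 called genes per list with the largest fold, and the 12 most alike. Depth and the number of pools limit precision. Ratios, levels and figures were made in Python 3.11.15.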

Additional observations from a re-analysis of the deposited data

Results flagged for a closer look

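In the 5 regions of 4 libraries, a library is given here when its gap to the nearest other library, as a share of the whole range, passed Dixon's critical value, which chance gives in about 1 of 20 groups. This held for 9 of 35 pairs of gene and region. NTS 1 stood apart for all 7 genes, with *Ttr* at 10330 TPM, *Folr1* at 120 TPM, *Kl* at 90.1 TPM, *Clic6* at 105 TPM, *Aqp1* at 22.2 TPM, *Slc4a5* at 41.5 TPM and *Cldn2* at 22.0 TPM. *Aqp1* was at 0.538 TPM in CENT2 1 and at 0.0454 to 0.0901 TPM in the other CENT2 libraries. *Slc4a5* was at 3.72 TPM in CUL4-5 1 and at 0.581 to 0.798 TPM in the others, although its estimated counts were alike, at 32 against 24 to 28.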

How the results depend on the processing

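Of the values of single genes, 362 of 413 kept their direction and their side of the threshold under the other settings and 1245 of 1316 with 1 library left out, with 20 and 30 weaker, 18 and 8 stronger, and 13 and 33 turned in sign. With 1 library left out, the log2 fold changes that turned ran, in DVC against NTS, from -6.67 to 4.17 for *Ttr*, -5.19 to 2.88 for *Folr1*, -3.18 to 1.46 for *Kl*, -3.58 to 1.27 for *Clic6*, -4.99 to 0.69 for *Aqp1* and -5.47 to 1.85 for *Cldn2*, each turned without NTS 1. In UVU, without UVU 1 the lowest values were reached, from -0.39 to 3.28 for *Kl*, -0.27 to 4.35 for *Aqp1*, -1.94 to 3.55 for *Folr1*, -0.48 to 1.2 for *Clic6* and -0.35 to 2.32 for *Slc4a5*. In the hindbrain nuclei the lowest values were those without NTS 1, from -1.43 to 0.79 for *Cldn2*, -2.35 to 0.10 for *Folr1* and -0.62 to 0.92 for *Kl*. *Kl* in H ran from -0.29 to 0.43, *Ttr* in the telencephalon from -0.63 to 0.56, and in CBN against H *Aqp1* from -0.93 to 0.27 and *Slc4a5* from -0.16 to 1.03. Under other settings, *Kl* in H turned to -0.01 without a filter, and with limma to -0.16 (pseudocount 0.5) and -0.23 (0.1). With the same 2 pseudocounts limma gave -0.15 and -0.22 for *Kl* in the hindbrain nuclei, -0.09 and -0.28 for *Ttr* in the telencephalon, and, for *Slc4a5*, 0.05 and 0.11 in the medial hypothalamus and 0.05 and 0.03 in the telencephalon. With 0.1 it gave -0.30 for *Cldn2* in the hindbrain nuclei and 0.39 for *Folr1* in DVC against NTS. With 1 library left out, the number of the 7 genes called ran from 2 to 6 for H against M and THy/PHy, from 2 to 5 for hindbrain nuclei against hypothalamus, from 0 to 3 for UVU against CENT2 and CUL4-5, and from 1 to 3 for telencephalon against hypothalamus. For hindbrain nuclei, limma with a pseudocount of 0.1 called 4 genes in place of 2. For UVU, limma called 0 with either pseudocount. For the telencephalon, DESeq2 called 5, limma 1 with a pseudocount of 0.5 and 4 with 0.1, in place of 2. The causes were not tested. The replicate number was not taken to pair the samples, since the labels give it no shared source and libraries of the same number in different regions had a median correlation of deviations of 0.00804 and a lowest of -0.431. As a hint from the data only, 30 of 69 libraries were nearest to their own number. As a block it gave 1 gene called for UVU and 4 for the telencephalon, and counts within 1.5 times elsewhere. The median r between the 7 genes was 0.69 with a pseudocount of 0.1, 0.98 without a logarithm, and, in settings chosen after seeing the data, 0.03 within the libraries under 12 TPM of *Ttr* and 0.96 within the 11 others. All 7 genes were in the highest 5% of genes by spread within groups, 2 of them with a pseudocount of 0.1 and 3 without NTS 1. With a CBN library left out, CBN had the highest mean for 4 to 6 genes.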
